A study of Rattus norvegicus with 18 samples.

Results

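In rat kidney, 87 of 4005 listed transcripts (2.17%) had a value above 0 in all 6 libraries of the spontaneously hypertensive rat (SHR) and a value of exactly 0 in all 6 libraries of the Wistar-Kyoto rat (WKY). They were selected on these values, so their presence in one strain and their zeros in the other describe the choice and were not tested. Their levels in SHR, the spread between rats, the other transcripts of the same locus and the values after treatment with isoliensinine are described below. Of the 87, 80 carried an ID of a merged transcript assembly and 7 an Ensembl transcript ID. The files do not pair IDs with gene names, and 0 of the 87 IDs matched the RefSeq gene table for rat (assembly GRCr8). Of all 6214 listed IDs 0 matched it, so the lack of a match is no trait of the 87. Genes, chromosomes, exons and sequences are therefore not given, and the kidney origin of the RNA was not checked against marker genes.

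The study compared 3 groups of 6 rats. WKY rats and SHR received double distilled water, and the group SHR+Iso, also of the SHR strain and also labelled with double distilled water, received isoliensinine at 5 mg/kg per day, each for 10 weeks. Age and sex are not used here. Total RNA of kidney was sequenced after removal of ribosomal RNA. Hypertension and genetic background differ together between SHR and WKY and cannot be told apart, and in whole kidney fewer cells of a type and less RNA per cell cannot be told apart either.

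SHR is an inbred strain derived from Wistar-Kyoto stock that develops high blood pressure without surgery or drugs, and WKY is its usual normotensive control. The kidney sets long-term blood pressure through salt and water excretion, and isoliensinine is an alkaloid of lotus seed. A single gene can give several transcripts, called isoforms, through different start sites, splicing and ends. In the merged assembly an ID holds a locus number and an isoform number, so that MERGE.3624.1, MERGE.3624.2 and MERGE.3624.3 are 3 isoforms of locus MERGE.3624. Inbred strains can differ in which isoform of a locus they use, in the total output of the locus, or in both, and a table of transcripts shows these patterns separately.

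The deposited values are normalized abundances, and neither labels nor headers name their scale. Whether it corrects for transcript length is also unknown, so an order of levels between transcripts is the order of the deposited values. Because an exact 0 may reflect an estimate that failed, the wording here is listed at 0. The WKY and SHR files do not hold all transcripts: of the 293 transcripts at 0 in all WKY libraries, 0 had fewer than 3 SHR libraries above 0, and no member had an SHR mean under 0.524. Values summed to 15382.3 to 17937.5 per SHR library, and 771 to 971 of the 4005 transcripts were listed at 0 in one. The SHR values did not overlap those of WKY and were higher for 512 of the 4005 listed transcripts, or 12.8%, and the 87 belong to these by the rule.

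The 87 were mostly low. Their SHR means ran from 0.524 to 58.3, with a median of 1.18 and quartiles of 0.778 and 3.08. Other transcripts above 0 in all 6 SHR libraries, 2227 in number, had a median of 1.40. Only 1877 of these had a mean of at least the lowest member mean, 0.524. The median over the 1877 was not computed, so 1.40 also covers transcripts lower than any of the 87. A mean of at least 10 was reached by 11 of the 87, a mean of 1 to under 10 by 40, and the remaining 36 lay below 1. The 11 most abundant made up 73.4% of all the values of the 87.

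**Figure D1:**
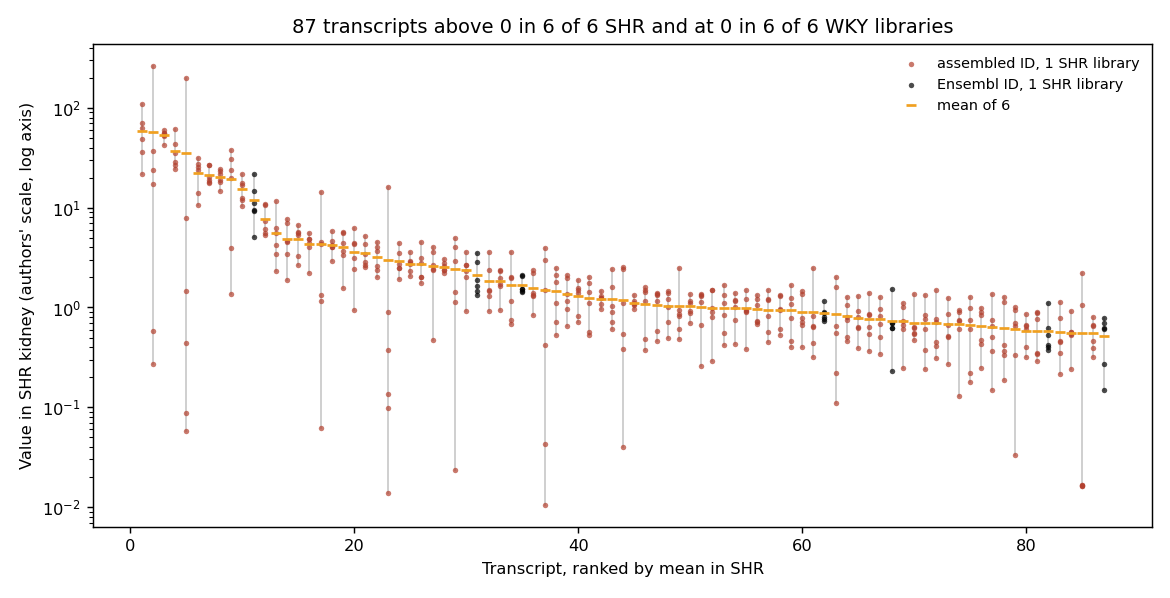
Values of the 87 transcripts in the 6 SHR libraries on a log axis, ranked by their mean, with a grey line from the lowest to the highest library, a dash at the mean, and black points for Ensembl IDs. The means fall from 58.3 to 0.524, and the grey lines of MERGE.8746.25 and MERGE.8746.29 are among the longest, up to 263 and 201. WKY values are all 0 and cannot be drawn on this axis.

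Among the 11 abundant transcripts, 7 were at or above 10 in every SHR library. MERGE.22775.1 was the steadiest of them, with a lowest value of 42.1, a median of 54.4 and a highest of 59.99 (mean 53.2 ± 6.13, SD, n = 6). Its coefficient of variation, the SD as a share of the mean, was 11.5%. MERGE.22207.1 had the highest mean, 58.3 ± 30.8 (SD, n = 6), and ranged from 21.6 in replicate 6 to 110 in replicate 1 around a median of 55.7. All 6 libraries of both transcripts were thus well away from 0, and the second varied about 5.08-fold between rats.

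MERGE.25737.1 lay between 24.3 and 62.0 with a median of 32.3 (36.9 ± 14.1, SD, n = 6). MERGE.5493.2 lay between 10.7 and 31.2 with a median of 24.6 (22.1 ± 7.98, SD, n = 6). MERGE.3822.3 lay between 14.7 and 24.3 with a median of 20.3 (20.2 ± 3.61, SD, n = 6). None of these 3 came near 0 in any SHR rat, and MERGE.5493.2 and MERGE.3822.3 were the only listed isoforms of their loci in the WKY and SHR files.

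MERGE.14719.1 and MERGE.14720.1 were the only pair of the 87 with consecutive locus numbers. MERGE.14720.1 ranged from 17.6 to 26.6 with a median of 19.4 (21.3 ± 4.16, SD, n = 6). MERGE.14719.1 ranged from 10.5 to 21.7 with a median of 14.7 (15.2 ± 4.25, SD, n = 6). Both had their lowest value in replicate 4, and neither locus had another listed isoform. How the assembly numbered its loci is not given in the sources used here, so consecutive numbers are reported as numbers and not as a position.

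The other 4 abundant transcripts were less even. MERGE.15582.1 reached 23.7, 30.7 and 37.7 in replicates 2, 5 and 6, and stood at only 3.93 in replicate 1 and 1.37 in replicate 4 (19.6 ± 14.5, SD, n = 6). ENSRNOT00000038660, the most abundant with an Ensembl ID, ranged from 5.07 to 22.0 with a median of 10.3 (11.98 ± 5.83, SD, n = 6). MERGE.8746.25 and MERGE.8746.29, isoforms of 1 locus, owed most of their means to a single library. MERGE.8746.25 was at 263 in replicate 3, between 17.4 and 36.7 in replicates 1, 2 and 6, and near 0 in replicate 4 (0.578) and replicate 5 (0.270). MERGE.8746.29 was at 201 in replicate 3, at 7.94 in replicate 2 and at 0.0573 to 1.48 in the other 4. Replicate 3 held 77.0% of the summed values of the first and 95.2% of the second.

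These 2 isoforms of locus MERGE.8746 also set the sum of all 87. That sum was 836 in SHR replicate 3 and 338 to 475 in the other 5 libraries (478 ± 181, SD, n = 6). Without the 2 isoforms it was 373 in replicate 3 and 337 to 451 in the others (386 ± 38.5, SD, n = 6). The 87 transcripts made up 1.89% to 4.66% of the listed values of an SHR library. The highest of the 6 values of a transcript fell in replicate 3 for 25 of the 87, in replicate 1 for 16, in replicates 2 and 6 for 15 each, in replicate 4 for 10 and in replicate 5 for 6. The lowest fell in replicates 3 and 4 for 19 each and in replicate 5 for 15. For replicates 6, 1 and 2 it was 14, 12 and 8. Neither tally was computed for all listed transcripts.

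Spread between SHR rats was close to that of other transcripts. The median coefficient of variation of the 87 was 44.2%, against 42.1% for the 1877 other transcripts that were above 0 in all 6 SHR libraries with a mean of at least the lowest member mean. It exceeded 100% for 6 of the 87 (6.90%) and for 124 of the 1877 (6.61%), and was under 20% for 9 of the 87 (10.3%) and 201 of the 1877 (10.7%). These shares are descriptions and lie near each other.

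**Figure D2:**
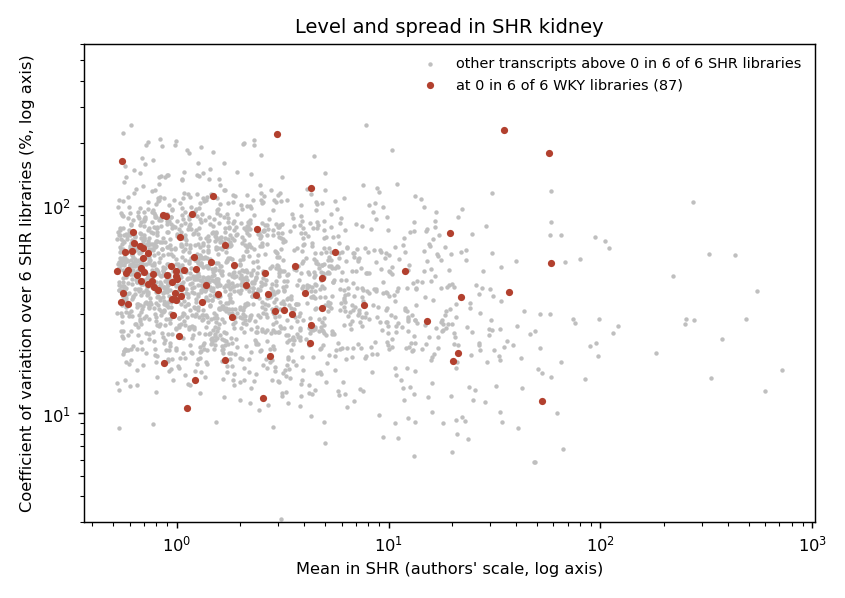
Coefficient of variation over the 6 SHR libraries against the SHR mean, both on log axes, for the 87 transcripts (red) and 1877 others (grey). The 1877 were above 0 in all SHR libraries with a mean of at least the lowest member mean. The red points lie among the grey ones, with medians of 44.2% and 42.1%.

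The steadiest 3 of the 87 were MERGE.19110.1, MERGE.22775.1 and MERGE.9840.1. MERGE.19110.1 ranged from 0.963 to 1.32 (1.12 ± 0.119, SD, n = 6; coefficient of variation 10.6%). MERGE.9840.1 ranged from 2.23 to 3.06 (2.56 ± 0.306, SD, n = 6; 11.9%). MERGE.19110.1 and MERGE.22775.1 had coefficients of variation of 10.6% and 11.5% at means of 1.12 and 53.2. The most uneven were MERGE.8746.29 at 231%, MERGE.13928.3 at 220% and MERGE.8746.25 at 179%. MERGE.13928.3 was at 16.3 in replicate 1 and at 0.0139 to 0.892 in the other 5.

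The 7 Ensembl transcripts were few and mostly low. They made up 8.05% of the 87, against 20.7% of all 4005 listed transcripts and 27.6% of the others above 0 in all SHR libraries. ENSRNOT00000006888 ranged from 1.34 to 3.53 (2.12 ± 0.879, SD, n = 6). ENSRNOT00000002308 ranged from 1.44 to 2.11 (1.69 ± 0.307, SD, n = 6). ENSRNOT00000080996 ranged from 0.724 to 1.15 (0.874 ± 0.153, SD, n = 6). In these 3 the highest SHR rat was at most 2.64 times the lowest.

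The remaining Ensembl transcripts lay lower still. ENSRNOT00000083724 was at 1.54 in replicate 5 and at 0.229 to 0.698 in the others (0.733 ± 0.432, SD, n = 6). ENSRNOT00000041838 was at 1.10 in replicate 3 and at 0.375 to 0.624 in the others (0.577 ± 0.274, SD, n = 6). ENSRNOT00000075985 ranged from 0.148 to 0.786 (0.524 ± 0.255, SD, n = 6) and had the lowest mean of the 87. In the first 2 a single rat stood above the other 5.

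The edge of the set was not sharp. Of the 87, 79 were at or above 0.1 in every SHR library and 24 at or above 1. The remaining 8 had a value below 0.1 in at least 1 library. Just inside the rule, MERGE.14782.8 had a lowest value of 0.0105 in replicate 5 and a highest of 3.91 in replicate 2. MERGE.13928.3 had a lowest value of 0.0139, and MERGE.15541.30 was at 0.0161 to 0.0166 in 4 libraries, 2.20 in replicate 2 and 1.06 in replicate 5. These 3 entered on values that are small beside those of the same transcript in other rats.

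Just outside, 59 transcripts were at 0 in all WKY libraries and above 0 in 5 of the 6 SHR libraries, and 73 were above 0 in all SHR libraries and in a single WKY library. MERGE.8746.22 was at 48.3 to 110 in 5 SHR libraries and at 0 in replicate 5. MERGE.8746.21 was at 5.91 to 62.3 in 5 and at 0 in replicate 3. MERGE.22207.3 was at 6.20 to 47.4 in 5 and at 0 in replicate 4. All 3 belong to loci that also hold 1 or 2 of the 87, and their means, 63.9, 23.6 and 18.0, were above that of most of the 87.

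In the other direction, MERGE.9922.4 was at 6.49 to 49.6 in SHR and at 24.7 in WKY replicate 1. MERGE.21177.1 was at 21.7 to 31.4 in SHR and at 0.421 in WKY replicate 4. MERGE.7856.3 was at 11.4 to 35.5 in SHR and at 6.35 in WKY replicate 6. For MERGE.21177.1 the single WKY value was small beside every SHR value, while for MERGE.9922.4 it lay within the SHR range. The single WKY value was at most 0.1 for 29 of the 73 and at least 1 for 14.

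The IDs show how the 80 assembled transcripts are spread over loci. They came from 75 loci with numbers from 2073 to 28566. At 52 of these loci the transcript was the only one listed for WKY and SHR, which is 65.0% of the 80, against 65.5% of all 3177 listed assembled transcripts. Isoform number 1 was carried by 42 of the 80 (52.5%) and by 41.3% of the 3177. The 52 without a listed partner had a median SHR mean of 1.05 and the 28 with one a median of 1.53. A locus without a listed partner can still have isoforms that did not enter the deposited list.

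The other 28 transcripts lay at 23 loci that held 101 further listed transcripts. Those 101 show what the same locus gave in WKY, which the rule did not use. They come from the same libraries and from a list whose selection is not stated, so they are described without a test. Of the 101, 45 (44.6%) had a higher mean in WKY, against 51.6% of all 4005, and 56 a higher mean in SHR. Values of SHR and WKY did not overlap and were lower in SHR for 15 of the 101 (14.9%), against 623 of all 4005 (15.6%). They did not overlap and were higher in SHR for another 15 (14.9%), against 12.8% of all 4005. The share lower in SHR is near that of all 4005. At 0 in all WKY libraries were 20 of the 101 (19.8%), against 7.32% of all listed transcripts, and at 0 in all SHR libraries were 12 (11.9%), against 6.77%. All 4005 include the transcripts selected by the rule, while the 101 do not. By the rule the selected transcripts are at 0 in WKY and higher in SHR without overlap. They raise the shares of 7.32% and 12.8% and lower those of 51.6%, 15.6% and 6.77%. Shares without them were not computed, so those of all 4005 are not a like background for the 101.

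At 16 of the 23 loci at least 1 other isoform had a higher mean in WKY than in SHR, and at 8 of them such an isoform did so without overlap. A locus with more isoforms has more chances to hold one, and the loci held 1 to 26 others. The same shares were not computed for other loci with several listed transcripts, so these counts have no background. The 23 loci fell into 3 kinds by the sum of their listed values. For 10 loci the sums were higher in SHR without overlap between the 6 and 6 libraries, for 3 they were lower in SHR without overlap, and for 10 they overlapped. The sums hold listed isoforms alone and are not the full output of a locus. They include those of the 87 at the locus, which made up 2.12% to 100% of the SHR sum. By the rule these are above 0 in SHR and at 0 in WKY, so every sum is raised in SHR. The same split was not computed for other loci. Whether the values correct for transcript length is unknown, so a sum over isoforms is a sum of the deposited values. The loci named in the next paragraphs, beyond those with several of the 87 or with a transcript found in WKY alone, were chosen after their values were seen.

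**Figure D3:**
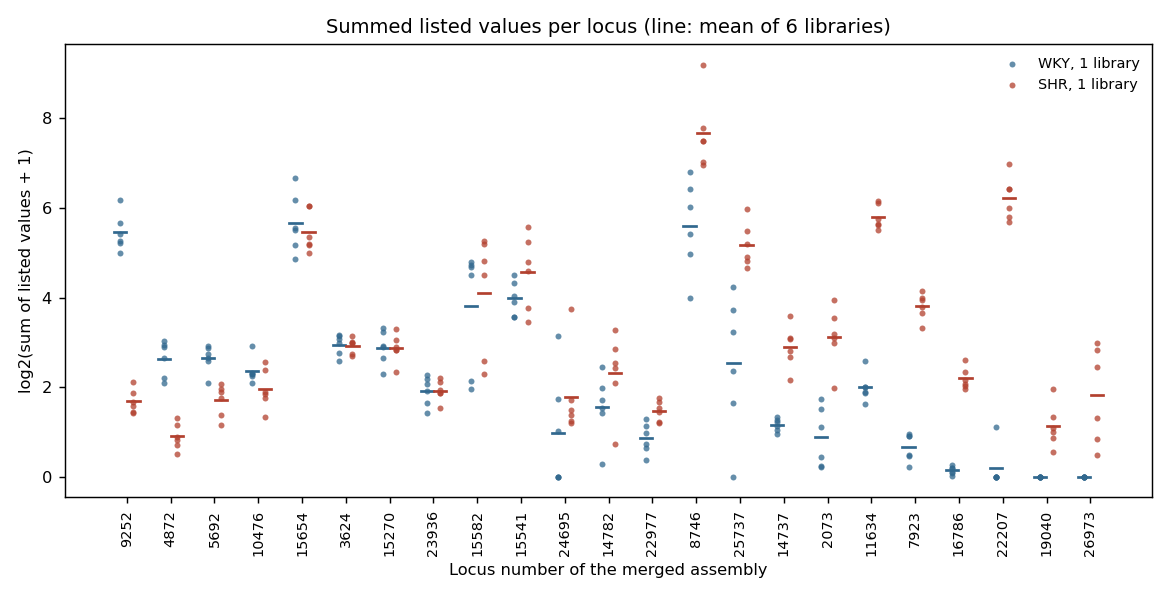
Sum of the listed values at each of the 23 loci, as log2(sum + 1), for the 6 WKY (blue) and 6 SHR (red) libraries, ordered by the ratio of the means with the 2 loci that are all 0 in WKY last. The sums do not overlap and are lower in SHR at loci MERGE.9252, MERGE.4872 and MERGE.5692, overlap at 10 loci, and do not overlap and are higher in SHR at 10.

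Locus MERGE.3624 had 1 listed isoform that was lower in SHR and 2 that were listed at 0 in WKY. MERGE.3624.1 was at 5.01 to 7.94 in WKY and at 0.0209 to 1.25 in SHR (6.82 ± 1.19 and 0.539 ± 0.411, SD, n = 6 each). MERGE.3624.3 was at 0 in WKY and at 2.92 to 5.77 in SHR (4.27 ± 0.932, SD, n = 6). MERGE.3624.2 was at 0 in WKY and at 0.945 to 2.37 in SHR (1.83 ± 0.533, SD, n = 6). The 3 isoforms together summed to 6.82 ± 1.19 in WKY and 6.64 ± 0.880 in SHR (SD, n = 6 each), and the 2 SHR isoforms made up 91.9% of the SHR sum. The strains differed in the listed isoforms, while the ratio of the summed means was 0.973, on a scale whose correction for length is unknown.

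Locus MERGE.23936 had a similar sum with partly different isoforms. MERGE.23936.9 was at 1.67 to 3.54 in WKY and at 0.462 to 0.810 in SHR. MERGE.23936.2, one of the 87, was at 0.652 to 2.12 in SHR and made up 48.4% of the SHR sum. The summed values were 2.86 ± 0.828 in WKY and 2.83 ± 0.581 in SHR (SD, n = 6 each).

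Locus MERGE.15270 held 2 of the 87 among 10 listed isoforms. MERGE.15270.14 was at 0.450 to 1.49 in SHR, and MERGE.15270.13 ranged from 0.0401 in replicate 5 to 2.53 in replicate 1. MERGE.15270.11 was at 1.67 to 3.54 in WKY and at 0.198 to 1.13 in SHR. MERGE.15270.4 was at 1.12 to 1.87 in WKY and at 0.385 to 0.843 in SHR. Neither of these last 2 overlapped between the strains, yet the sums over the locus, 6.60 ± 1.89 in WKY and 6.48 ± 1.56 in SHR (SD, n = 6 each), did.

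Locus MERGE.15582 was less even. MERGE.15582.5 was at 21.8 to 26.8 in WKY replicates 1, 2, 3 and 6, at 3.41 in replicate 4 and at 2.89 in replicate 5. In SHR it was at 0 to 5.02, so that the strains overlapped. MERGE.15582.1, the SHR isoform described above, made up 89.6% of the SHR sum. The sums were 17.6 ± 11.3 in WKY and 21.8 ± 14.7 in SHR (SD, n = 6 each), and in both strains 2 rats lay far below the other 4.

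At locus MERGE.25737 each strain had 1 listed isoform. MERGE.25737.1 was at 24.3 to 62.0 in SHR and MERGE.25737.2 at 0 in all 6 SHR libraries. In WKY, MERGE.25737.2 was at 2.15 to 17.9 in 5 libraries and at 0 in replicate 5. Every SHR sum was above every WKY sum, with 36.9 ± 14.1 against 7.46 ± 6.72 (SD, n = 6 each).

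**Figure D4:**
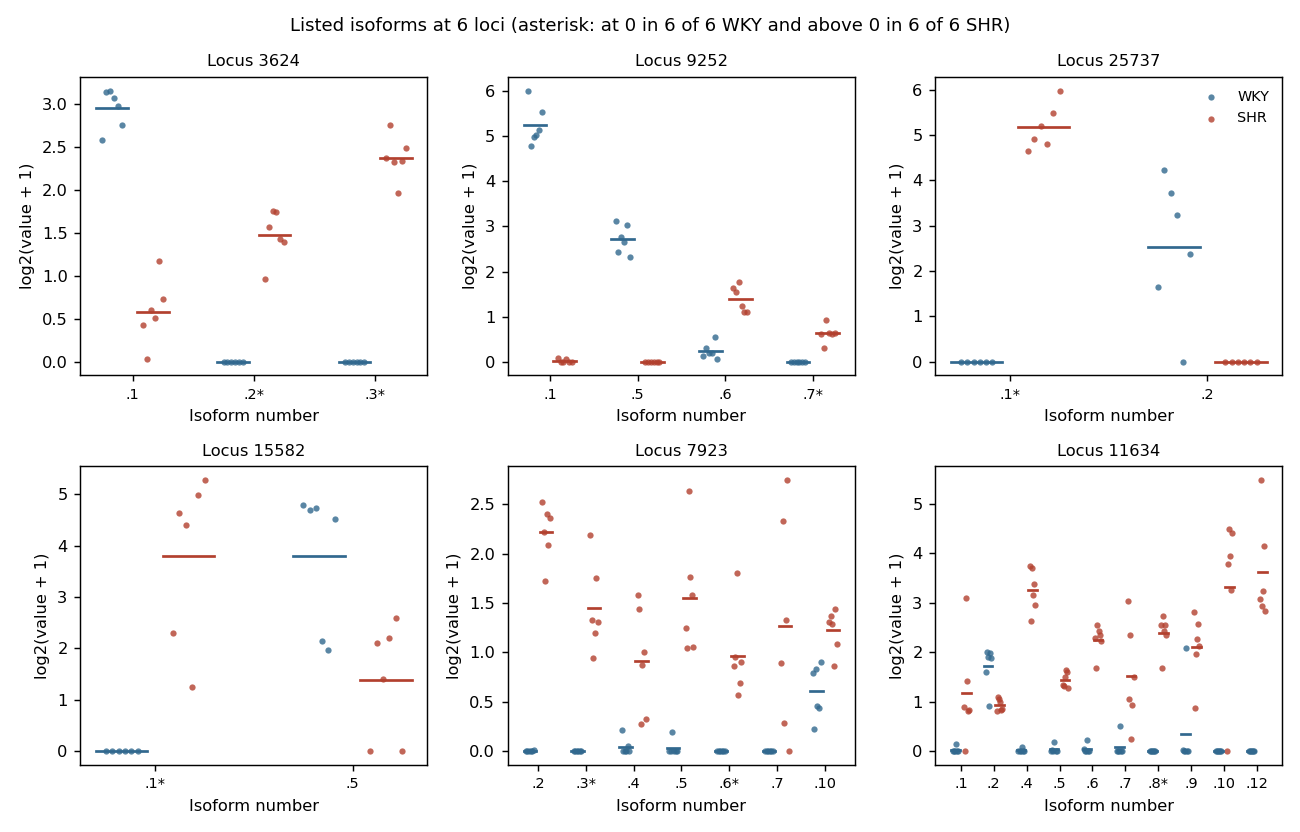
Values of each listed isoform at 6 loci as log2(value + 1), 6 libraries per strain (WKY blue, SHR red) with a line at the mean, and an asterisk on isoforms above 0 in all SHR and at 0 in all WKY libraries. At locus MERGE.3624 isoform 1 is the highest in WKY and isoform 3 in SHR, at locus MERGE.9252 isoform 1 reaches 63.4 in WKY and no isoform exceeds 2.42 in SHR, and at loci MERGE.7923 and MERGE.11634 the sums are higher in SHR.

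At 3 loci a transcript at 0 in WKY accompanied lower sums in SHR. Locus MERGE.9252 held MERGE.9252.5, which was above 0 in all WKY libraries (4.02 to 7.73) and at 0 in all SHR libraries, the reverse of the 87. Its MERGE.9252.1 was at 26.4 to 63.4 in WKY and at 0 to 0.0543 in SHR. MERGE.9252.7, one of the 87, was at 0.240 to 0.914 in SHR, and MERGE.9252.6 at 1.14 to 2.42 in SHR against 0.0481 to 0.462 in WKY. The sums were 44.5 ± 14.5 in WKY and 2.26 ± 0.642 in SHR (SD, n = 6 each), a ratio of 0.0507.

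Locus MERGE.4872 summed to 5.40 ± 1.64 in WKY and 0.900 ± 0.387 in SHR (SD, n = 6 each). Its MERGE.4872.1 was at 2.70 to 6.20 in WKY and at 0 to 0.623 in SHR, and its MERGE.4872.4, one of the 87, was at 0.243 to 1.34 in SHR. Locus MERGE.5692 summed to 5.37 ± 1.19 in WKY and 2.34 ± 0.767 in SHR (SD, n = 6 each). MERGE.5692.11, one of the 87, made up 62.4% of that SHR sum, and 5 of the 6 other isoforms had a higher mean in WKY.

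At 10 loci the sums were higher in SHR without overlap, and 3 of them are described here. Locus MERGE.7923 held 2 of the 87 and 5 others, none with a higher mean in WKY. MERGE.7923.3 was at 0.920 to 3.56 and MERGE.7923.6 at 0.487 to 2.49 in SHR. MERGE.7923.2, which missed the rule through a value of 0.0107 in WKY replicate 6, was at 2.31 to 4.76 in SHR. The locus summed to 13.2 ± 2.72 in SHR and 0.606 ± 0.332 in WKY (SD, n = 6 each).

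Locus MERGE.11634 was of the same kind with 10 listed isoforms. MERGE.11634.8, the 1 among the 87, was at 2.21 to 5.59 in SHR. MERGE.11634.12 was at 6.08 to 43.5 in SHR and missed the rule through a value of 0.00485 in WKY replicate 5. The locus summed to 55.5 ± 10.8 in SHR and 3.08 ± 0.997 in WKY (SD, n = 6 each). Of its 9 other isoforms, 1 had a higher mean in WKY. The 87 made up 21.9% of the SHR sum at the first of these loci and 7.77% at the second.

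Locus MERGE.14737 had 1 of the 87, MERGE.14737.2, at 0.932 to 3.59 in SHR. Its partner MERGE.14737.1 was listed in both strains, at 2.51 to 8.40 in SHR and 0.945 to 1.53 in WKY. The sums were 6.81 ± 2.57 in SHR and 1.24 ± 0.224 in WKY (SD, n = 6 each) and did not overlap.

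The 2 loci with the most listed isoforms were mixed. Locus MERGE.8746, with the uneven MERGE.8746.25 and MERGE.8746.29, had 12 listed isoforms, and 4 of its 10 others had a higher mean in WKY. Its sums were 14.9 to 111 in WKY and 124 to 589 in SHR, the highest in SHR replicate 3. Locus MERGE.15654 had 28 listed isoforms, of which 2 belong to the 87, and 11 of the other 26 had a higher mean in WKY. MERGE.15654.76, the second transcript of these loci with the reverse pattern, was at 0.773 to 5.66 in WKY and at 0 in SHR. MERGE.15654.8 was at 14.3 in SHR replicate 6 and at 0.0622 to 4.50 in the others, and MERGE.15654.7 ranged from 0.0237 to 4.91. The sums over the 28 isoforms overlapped, at 54.3 ± 27.1 in WKY and 45.2 ± 15.4 in SHR (SD, n = 6 each).

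Values after treatment were listed for 14 of the 87 (16.1%), a share close to the 614 of all 4005 (15.3%). None of the 11 abundant transcripts and 1 of the 7 Ensembl transcripts was among them. How transcripts entered the treated files is not stated either, and for the other 73 nothing is known of treated rats. Of the 121 transcripts with the reverse pattern, 1 was listed for SHR+Iso.

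The 14 were above 0 in some treated rats and listed at 0 in others. Above 0 in all 6 treated libraries were 3, in 5 libraries 2, in 4 libraries 2, in 3 libraries 1, in 2 libraries 3 and in 1 library 3. By library, 10 of the 14 were at 0 in SHR+Iso replicate 2, 7 in replicate 4, 6 each in replicates 1 and 3, 5 in replicate 5 and 2 in replicate 6. Replicates 2 and 4 also had the most zeros over all 2823 listed transcripts, 1018 and 906 against 455 to 644. The calls without these libraries are given with the counts of calls below. Treated rats are of the SHR strain, and 11 of the 14 had a zero in at least 1 of them. How many of all 2823 had such a zero was not computed, so the count of 11 has no background. With 455 to 1018 of the 2823 at 0 in each treated library, zeros were not particular to the 14.

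The comparison of SHR+Iso with SHR asks what isoliensinine changed. Treated and untreated values come from different lists, of 2823 and 4005 transcripts. Treatment and list differ together and cannot be told apart. Values summed to 9075.44 to 11600.9 per SHR+Iso library and to 15382.3 to 17937.5 per SHR library, each over its own list. Whether the 2 lists share a scale is not stated. The 14 had to lie above 0 in every SHR rat and to be listed for SHR+Iso, so values of both groups bear on which transcripts are compared. The first condition favours a lower value in SHR+Iso, and the 614 shared transcripts carry no such condition. All 14 are higher in SHR than WKY by the rule, against 400 of the 614. Shares over the 614 are thus not a like background for the 14. The counts below therefore describe the 14 and are no evidence about them as a set. A mean below that of SHR was found for 11 of the 14 and for 406 of the 614 (66.1%), and a mean above it for 3 of the 14. Limma, fitted to all 614 shared transcripts, called 7 of the 14 lower and 1 higher at an adjusted p of 0.05, where it called 174 of the 614 (28.3%) lower and 99 (16.1%) higher. An unadjusted p under 0.05 was seen for 9 of the 14 and 437 of the 614. The median difference on the log2(value + 1) scale was -0.71 for the 14 and -0.56 for all 614. Which transcripts pass depends on scaling and on single libraries. After quantile normalization 0 of the 14 were lower and 3 higher, and 52 of the 614 lower and 183 higher, and without SHR+Iso replicate 2, without SHR replicate 1, or without SHR+Iso replicates 2 and 4 together, 0 were called in either direction. Without each other library in turn, 1 to 5 were called lower. The pseudocount also sets the size of a difference: the median was -2.13 over the 14 and -1.58 over all 614 with a pseudocount of 0.1.

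Of the 8 most abundant of the 14, 4 passed as lower. MERGE.3624.3, the SHR isoform of locus MERGE.3624, was at 2.92 to 5.77 in SHR and at 1.05 to 3.04 in 5 treated libraries, with 0 in replicate 2. Its difference was -1.02 ± 0.38 (SE; limma adjusted p = 0.0472, 0.0313 to 0.194 over the alternatives). MERGE.9664.2 was at 1.56 to 5.65 in SHR, at 2.17, 2.85 and 2.91 in SHR+Iso replicates 1, 3 and 6, and at 0 in replicates 2, 4 and 5. It differed by -1.34 ± 0.45 (SE; limma adjusted p = 0.0368, 0.0247 to 0.139 over the alternatives). In both transcripts the groups overlapped, and the zeros in treated libraries stood apart from the other treated values.

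MERGE.18216.2 was at 0.712 to 1.88 in SHR and at 0 in 5 treated libraries, while replicate 5 reached 3.06, above every SHR value. Its difference was -0.85 ± 0.33 (SE; limma adjusted p = 0.0484, 0.00130 to 0.205 over the alternatives). It passed in 3 of 18 alternatives, and the difference itself ran from -0.56 after quantile normalization to -2.92 with a pseudocount of 0.1. MERGE.15654.8 was at 0.0622 to 14.3 in SHR and at 0 in 4 treated libraries, with 2.27 in replicate 4 and 0.229 in replicate 6. It differed by -1.54 ± 0.54 (SE; limma adjusted p = 0.0408, 0.0239 to 0.0752 over the alternatives). Its neighbour MERGE.15654.7 had the same 4 libraries at 0 and 5.54 and 2.74 in replicates 4 and 6 (limma adjusted p = 0.182).

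The other 3 of these 8 did not pass. MERGE.21283.2 was at 5.28 to 10.9 in SHR and at 4.14 to 8.94 in 4 treated libraries, with 0 in replicates 2 and 4 (limma adjusted p = 0.0757). MERGE.15270.13 was at 0 in 5 treated libraries and at 1.22 in replicate 3 (limma adjusted p = 0.0524). MERGE.18476.4 was at 0 in 4 treated libraries, at 0.711 in replicate 6 and at 2.29 in replicate 5, above every SHR value of 0.418 to 1.68 (limma adjusted p = 0.0993). For MERGE.21283.2 the 4 treated libraries above 0 lay within or just below the SHR range.

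The 3 others that passed as lower, named because they complete the 7, were MERGE.10911.1, MERGE.14905.1 and MERGE.26973.5. MERGE.10911.1 was at 0.181 to 1.28 in SHR and at 0 in 5 treated libraries, with 0.298 in replicate 6 (difference -0.64 ± 0.19, SE; limma adjusted p = 0.0297, 0.0170 to 0.0786 over the alternatives). MERGE.14905.1 and MERGE.26973.5 lay just under the threshold, at limma adjusted p = 0.0496 and 0.04999, and passed in 4 of 18 alternatives each.

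The 3 transcripts above 0 in every treated library were also the 3 with a higher mean there, and they are singled out after their values were seen. MERGE.11630.1 lay between 0.317 and 0.808 in SHR and between 0.879 and 2.87 in SHR+Iso, with no overlap (0.549 ± 0.188 and 1.49 ± 0.802, SD, n = 6 each). Its difference was 0.64 ± 0.23 (SE; limma adjusted p = 0.0451, 0.0160 to 0.111 over the alternatives). MERGE.11630.1 is the 1 of the 14 that was higher in SHR+Iso without overlap, as were 26 of the 614 (4.23%). The groups of the rest of the 14 overlapped. MERGE.27116.1 ranged over 0.341 to 1.27 in untreated and 0.897 to 2.14 in treated SHR (limma adjusted p = 0.0726). ENSRNOT00000075985 ranged over 0.148 to 0.786 in untreated and 0.757 to 1.24 in treated SHR (limma adjusted p = 0.0757). All 3 means in treated SHR lay farther from the WKY value of 0 than those of untreated SHR. This holds for any higher mean, since the rule set the WKY value at 0 and no value is negative.

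**Figure D5:**
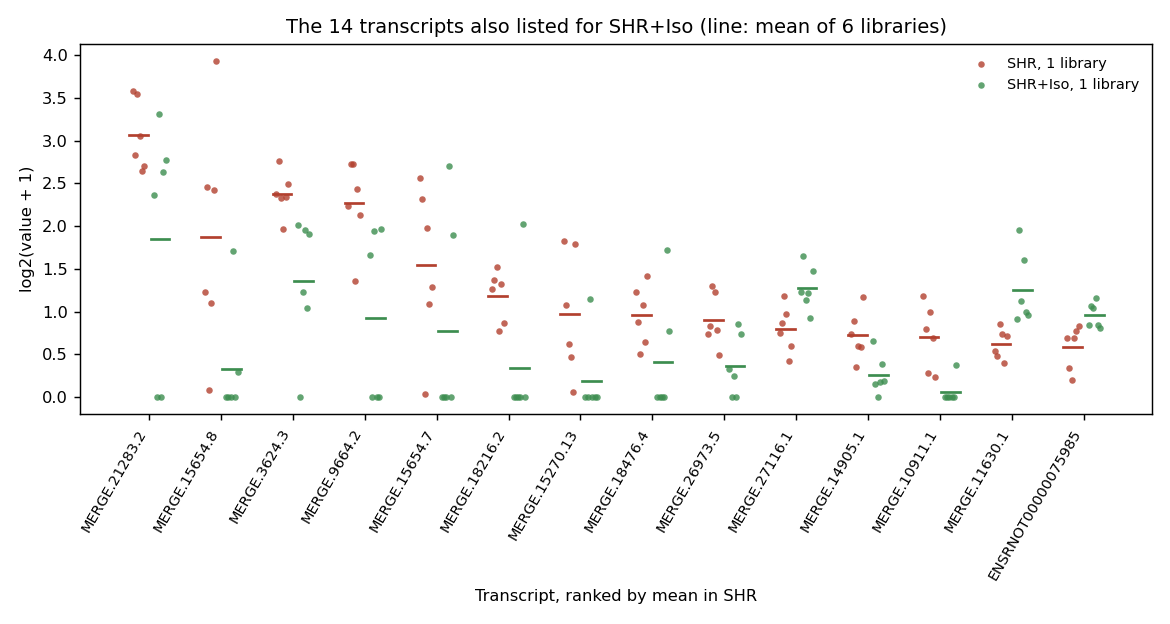
Values of the 14 transcripts listed for both SHR (red) and SHR+Iso (green) as log2(value + 1), 6 libraries each with a line at the mean, ranked by the SHR mean. In 11 transcripts the treated mean is lower and at least 1 treated library lies at 0, and in MERGE.27116.1, MERGE.11630.1 and ENSRNOT00000075985 all treated libraries are above 0 and the treated mean is higher.

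At 7 loci of the set the treated files listed 11 further transcripts, 7 of which were not in the WKY and SHR files and so have no value there. The most abundant was MERGE.22207.10, at 32.5 to 74.1 in SHR+Iso (50.0 ± 18.4, SD, n = 6). It shares its locus with MERGE.22207.1, which was at 21.6 to 110 in untreated SHR and was not listed for SHR+Iso. Whether treated and untreated rats differ at this locus cannot be read from these files, because no isoform of it was listed for both groups.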

How the data were processed

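The authors deposited 1 normalized signal value per transcript and library, never negative and with no stated scale. Limma is named in the submitters' processing notes. For aligner, quantifier, build and annotation, nothing is given in the sources used here. No total of reads is known, so no counting interval was computed. No 2 libraries of a group were identical. The members, lists and tests were chosen with earlier results of these data known. Members were found from the WKY and SHR files by exact values, and isoforms were grouped by the locus number in the ID. Means and SDs used Python 3.11.15 with pandas 2.3.3.

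SHR+Iso and SHR were compared with limma 3.58.1 in R 4.3.3 on log2(value + 1) of the 614 shared transcripts, with a trended prior, robust estimation, two-sided p-values and Benjamini-Hochberg adjustment over the 614. No filter on low values was used, since the SHR libraries alone could carry a member past it. How transcripts entered the deposited lists is not stated, and 437 of the 614 had an unadjusted p under 0.05, so the p-values carry no transcriptome-wide error rate. Named were Ensembl members, members with a mean of at least 10, the 8 most abundant of those listed for SHR+Iso, members at loci with several members or with the reverse pattern, the 3 least and 3 most variable, and the 3 nearest the rule on each side. Alternatives were a pseudocount of 0.1, a filter, quantile normalization, no trend, the replicate number as a block, an exact permutation test, other limits in the rule and each library left out. The cell type marker lists were not used because 0 IDs matched a gene symbol.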

Additional observations from a re-analysis of the deposited data

Results flagged for a closer look

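In 19 of 85 groups of 6 values checked for the named transcripts and their sums, 1 library lay far from the other 5. Chance marks about 1 in 20 groups, but the named transcripts include the 3 with the highest coefficient of variation, and the sum of the 87 repeats MERGE.8746.25 and MERGE.8746.29, so the number is not to be read against that share. Replicate 3 of SHR stood above the others for MERGE.8746.25 (263 against at most 36.7), MERGE.8746.29 (201 against at most 7.94), MERGE.7923.6 (2.49 against at most 0.939), ENSRNOT00000041838 (1.10 against at most 0.624) and the sum of the 87 transcripts (836 against at most 475). SHR replicate 1 reached 16.3 for MERGE.13928.3, SHR replicate 2 reached 43.5 for MERGE.11634.12, SHR replicate 4 reached 1.13 for MERGE.15270.11, SHR replicate 5 reached 1.54 for ENSRNOT00000083724 and SHR replicate 6 reached 14.3 for MERGE.15654.8.

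In treated rats, replicate 4 reached 2.27 for MERGE.15654.8, replicate 3 reached 1.22 for MERGE.15270.13, and replicate 5 reached 3.06 for MERGE.18216.2 and 2.29 for MERGE.18476.4. In WKY a single library was above 0 for MERGE.9922.4 (24.7 in replicate 1), MERGE.7856.3 (6.35 in replicate 6), MERGE.21177.1 (0.421 in replicate 4), MERGE.7923.2 (0.0107 in replicate 6) and MERGE.11634.12 (0.00485 in replicate 5). These 5 WKY groups follow from how the transcripts were picked, as just outside the rule or close to it.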

How the results depend on the processing

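The number of transcripts in the set depended on how strictly 0 was read: 158 were at most 0.1 in all WKY libraries and 24 were at least 1 in all SHR libraries, while at most 0.01 in WKY gave 96 and at least 0.1 in SHR gave 79. Without single libraries it was 88 to 106. Their median SHR mean was 1.08 to 1.23 without single SHR libraries. Other isoforms at their loci that were lower in SHR numbered 45 by the mean and 2 by the reverse of the rule, and 15 to 18 without overlap when single libraries were left out. Of the 14 listed for SHR+Iso, the number called lower was 8 with a pseudocount of 0.1, 3 with a filter at 1 in 6 of the 12 libraries (6 were then fitted), 0 after quantile normalization, 4 without a trend, 3 by the exact permutation test, 0 without SHR+Iso replicates 2 and 4 together, and 0 to 5 without single libraries (0 without SHR replicate 1 or SHR+Iso replicate 2, 1 without SHR replicate 2, 2 without SHR replicate 4 or 5, 3 without SHR replicate 3 or 6 or SHR+Iso replicate 3 or 4, 4 without SHR+Iso replicate 5). Over all 614, calls went from 174 lower and 99 higher to 33 and 24 without SHR+Iso replicates 2 and 4, and to 64 and 39 without replicate 2 alone. The number called higher, an addition made after seeing the data, was 0 with the pseudocount of 0.1, 0 with the filter, 3 after quantile normalization, 3 by the exact permutation test, 0 without replicates 2 and 4 together, and 0 to 1 without single libraries. Quantile normalization moved the median difference of all 614 from -0.56 to -0.25. None of the 14 changed direction under an alternative.

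With the replicate number as a block, 3 of the 14 were called lower and 0 higher. Same-numbered SHR and SHR+Iso libraries had correlations of -0.0432 to 0.048 in their deviations from the group means, and 0 of 6 matched best with its own number. The values thus show no pairing by number. They cannot tell whether same-numbered rats were matched in a way that left no trace in these values. The unknown read depth limits what a value of 0 shows.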
